A study of Mus musculus with 8 samples.

Results

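The marker genes of 3 blood lineages, erythroid cells, megakaryocytes and macrophages, were followed in *Bapx1*-EGFP sorted cells of the E12.5 mouse spleen, in *Bapx1* null against wildtype embryos. The list held 37 genes, 12 erythroid, 10 megakaryocyte and 15 macrophage markers, and a gene's probes were taken as all those that the platform annotation names with its current or an older symbol. A total of 34 of the 37 genes had at least 1 such probe, 53 probes in all. Of these genes 26 passed the filter on dim probes and were tested (7 erythroid, 7 megakaryocyte and 12 macrophage), among 10766 genes tested in the whole series.

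*Bapx1* (also named *Nkx3-2*) encodes a homeodomain transcription factor of the spleen primordium. The wildtype embryos carried the *Bapx1* tm2.Tlu allele, in which an IRES-EGFP cassette lies behind an intact coding sequence. The study writes this reporter genotype as +/tm2.Tlu, which is heterozygous. The null embryos were homozygous for *Bapx1* tm4.Tlu, in which EGFP follows the start codon and replaces a short stretch of the gene, so that EGFP marks *Bapx1* expressing cells in both genotypes. All embryos were on a mixed C57BL/6J;129 background, their spleens were dissected by hand, and EGFP positive cells were collected by FACS. Each genotype has 4 biological replicates (wildtype 1 to 4 and null 1 to 4) on MouseWG-6 v2 BeadChips, and the number of embryos behind a replicate was not given in the sources used here. The gate keeps EGFP positive cells, and none of the 3 lineages is a cell type that the labels give these samples.

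Erythroid cells of the mouse embryo come in a primitive wave from the yolk sac, which uses the embryonic globins *Hbb-y*, *Hbb-bh1* and *Hba-x*, and a definitive wave from the fetal liver, which uses the adult globins. Megakaryocytes bud platelets loaded with chemokines and covered with receptors for von Willebrand factor, collagen and fibrinogen. Macrophages settle in every embryonic organ and clear dying cells with the help of complement and scavenger receptors. At this stage the spleen is a condensation of mesenchyme that blood cells reach through its vessels.

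Across all arrays 19019 to 20152 of 45281 probes (42.0 to 44.5%) were above background, and the mean signal was 361.7 to 472.5 in wildtype and 302.4 to 398.1 in null arrays. All levels are given as log2 intensity after background correction and quantile normalization. The lowest value above background lay between 5.07 and 5.20 on the 8 arrays, so levels near 5 are at the limit of detection. With limma (two-sided, Benjamini-Hochberg adjusted over all genes, threshold 0.05), 44.8% of the genes tested were called different between the genotypes, 2909 higher in null (27%) and 1910 lower (17.7%). In wildtype arrays 14 of 15 tested spleen anlage and mesenchyme genes were detected and in null arrays all 15. The exception was *Nkx3-2* itself, which was not above background on any wildtype array (4.63 ± 0.12, SD, n = 4) and was at 7.04 ± 0.27 in null arrays, at least 3.79-fold higher. Of 2 probes annotated with its symbol, the values are those of the brightest kept one. The position of this probe relative to the replaced stretch is not given, so it does not check the labels. By RNA in situ hybridization the paper reports a loss of *Bapx1* expression in the null spleen, the opposite direction. The reason for this difference was not tested. Null 4 was the lowest null array for all 7 erythroid, all 12 macrophage and 5 of 7 megakaryocyte genes tested. The counts and the main differences are therefore given with all 8 arrays and without null 4. That array was singled out after its values had been seen, so counts and adjusted p values without it are descriptive only. In these bulk samples fewer cells of a lineage and less RNA per cell cannot be told apart.

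Stretches of the erythroid promoters are shown first, since GATA1 and KLF1, the erythroid transcription factors whose own genes are on the list, are known to bind GATA and CACC elements. RefSeq promoters (GRCm38.p6, 300 bases around the start site) were at hand for 28 of the 37 members, 7 of them erythroid. These are not the 7 tested erythroid genes. They include *Epb42* and *Gata1*, which were not tested, and lack the tested *Hbb-bh1* and *Slc4a1*. The letters GATAA, read on both strands, occurred in 6 of the 7 erythroid promoters (85.7%), 6 of 10 megakaryocyte and 3 of 12 macrophage promoters, against 25.4% of 32851 mouse promoters. CCACCC occurred in 6 of 7, 2 of 10 and 4 of 12, against 31.5%. Both spellings were settled on after others had been searched, and a match is a description of the letters, not a bound site. In the windows below, each written 5′ to 3′ in the direction of its gene and lying before the start site, capitals mark the match. TTATC is GATAA on the other strand.
*Hbb-y* (chr7:103853302-103853331, minus strand): catgacctggctCCACCCatgaggaccacg
*Hba-x* (chr11:32276481-32276510, plus strand): gttgctggctctGATAAcaggctccaccct
*Hba-a1* (chr11:32283599-32283628, plus strand): ccaagggcgtgtCCACCCtgcctggaggac
*Alas2* (chrX:150547319-150547348, plus strand): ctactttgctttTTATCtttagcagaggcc
*Klf1* (chr8:84901890-84901919, plus strand): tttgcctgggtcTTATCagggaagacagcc
*Gp5* (chr16:30310857-30310886, minus strand): tttcttgactttTTATCtggtaaggtcttt
The *Hba-x* window also holds a CCACCC match, left in lower case, to the right of GATAA. *Gp5* is shown as a megakaryocyte gene with the same match.

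On null 1, null 2 and null 3 each of the 7 tested erythroid markers was higher than on any wildtype array. On null 4 it lay below all wildtype arrays for 5 of them and inside the wildtype range for *Hbb-bh1* and *Klf1*. With all 8 arrays the genotypes overlapped for each of the 7, as for all 26 members, whereas 40.2% of all genes had groups that did not overlap. With all 8 arrays 1 of 7 was called higher, *Alas2*, beside 27% of all genes, and the median difference of the 7 genes was 1.57 (log2) beside 0.09 over all genes. Without null 4 all 7 were called higher, beside 31.6% of all genes in that fit, with a median difference of 2.69. Null 4 was the lowest null array for all 7, so leaving it out could only raise their null means.

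The embryonic globins shared 1 pattern. For *Hbb-y*, the embryonic epsilon-like globin of primitive red cells, levels were 11.21, 9.76, 11.48 and 9.20 on wildtype 1 to 4 and 11.99, 12.87, 13.34 and 8.33 on null 1 to 4. Null 3 held the highest value of all arrays and null 4 the lowest, so the wildtype range lay inside the null range. The difference was 1.22 ± 1.02 (SE, adjusted p = 0.345), and without null 4 it was 2.32 ± 0.56 (adjusted p = 0.0082). A further *Hbb-y* probe gave 1.21. *Hbb-bh1*, the other embryonic beta-like globin, was at 7.12, 6.07, 8.65 and 5.54 in wildtype and at 9.99, 10.67, 11.28 and 6.02 in null. Its null 4 value lay inside the wildtype range, and the other null arrays lay above it. This gene had the largest difference among the 26 members, 2.64 ± 1.11 (6.25-fold), with an adjusted p of 0.0781. Without null 4 it reached 3.80 ± 0.66 (13.9-fold, adjusted p = 0.00197). Its second probe, annotated with another transcript, stayed near the detection limit, between 4.88 and 5.47 on all arrays (difference 0.10). It did not follow the first probe, but at this level it gives little to set against it. *Hba-x*, the embryonic alpha-like globin, read 7.69, 6.24, 8.30 and 5.89 in wildtype and 8.97, 9.81, 10.37 and 5.36 in null. The order of the null arrays was that of *Hbb-y*, and the difference of 1.60 ± 1.02 (adjusted p = 0.223) rose to 2.69 without null 4 (adjusted p = 0.00505).

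**Figure D1:**
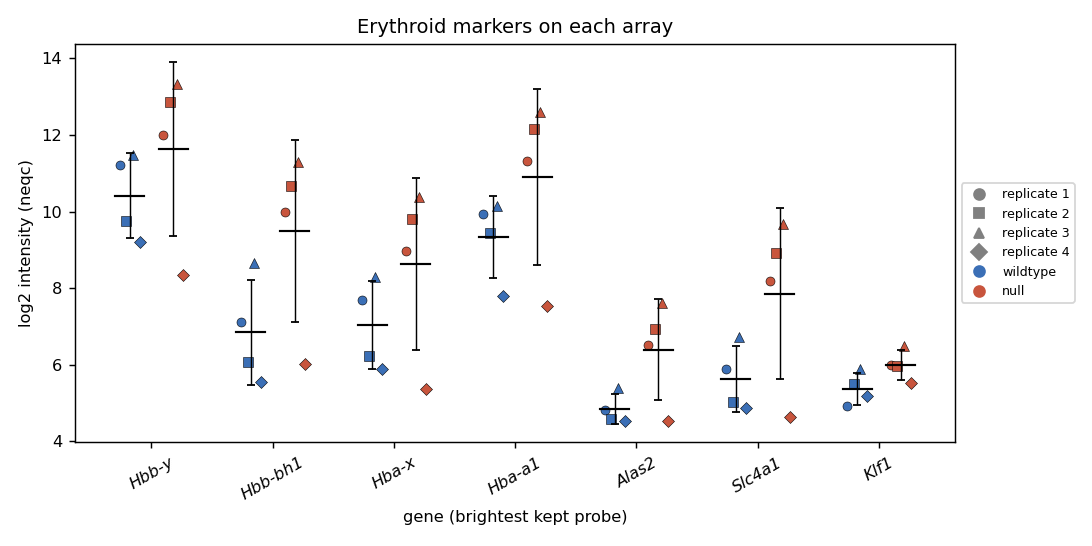
Log2 intensity (vertical axis) of the 7 tested erythroid genes (horizontal axis) on each array, wildtype in blue and null in red, with marker shapes for replicates 1 to 4 and bars for the mean ± SD. Null 1 to 3 lie above every wildtype array for each gene, and null 4 (diamond) lies at or below the wildtype mean except for *Klf1*.

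*Hba-a1* encodes adult alpha globin, which primitive and definitive red cells share. Its levels were 9.94, 9.44, 10.16 and 7.80 in wildtype and 11.33, 12.15, 12.60 and 7.54 in null, again with null 3 highest and null 4 lowest of the 8. The difference was 1.57 ± 1.02 (adjusted p = 0.232), and 2.69 without null 4 (adjusted p = 0.00353). A probe for *Hba-a1* may also read its near-identical neighbour *Hba-a2*. No probe carried the symbol *Hbb-b1*, since the annotation names the adult beta-globin probes *Hbb-bs* (6 probes), *Hbb-bt* (4) and *Hbb-b2* (1), which are near-identical copies in part. They are given in place of *Hbb-b1*, with their values known. The brightest *Hbb-bs* probe read 8.52, 9.30, 8.41 and 6.76 in wildtype and 10.72, 11.44, 12.01 and 6.85 in null. All 11 of these probes had a higher mean in null than in wildtype. *Hbb-b2* was detected on 2 wildtype and 3 null arrays, at 5.48, 5.08, 4.75 and 5.11 against 7.77, 8.22, 9.45 and 5.08. Its null 4 value did not stand out from wildtype.

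As means of 3 genes each, embryonic and adult globins kept step on the null arrays and did not on the wildtype arrays. The mean of *Hbb-y*, *Hbb-bh1* and *Hba-x*, relative to the wildtype mean, was 0.58, -0.74, 1.38 and -1.22 on wildtype 1 to 4 and 2.22, 3.02, 3.57 and -1.52 on null 1 to 4. The mean of *Hba-a1*, *Hbb-bs* and *Hbb-bt* was 0.38, 0.74, 0.38 and -1.499, and 2.27, 3.01, 3.52 and -1.55. Adult minus embryonic was thus 0.04, -0.02, -0.05 and -0.02 on null 1 to 4, and -0.20, 1.48, -1.003 and -0.28 on wildtype 1 to 4. On these means wildtype 3 leaned to embryonic globins and wildtype 2 to adult ones. Among the adult genes averaged, *Hbb-bs* (8.41 on wildtype 3, 9.30 on wildtype 2) and *Hbb-bt* (7.95 and 8.86) carried the lean. *Hba-a1* went the other way, with 10.16 on wildtype 3 and 9.44 on wildtype 2. The contrast between the globin means was noticed in the values and was not tested. It rests on means of brightest probes, and single genes moved by unlike amounts. With all arrays the difference was 1.22 for *Hbb-y* and 2.64 for *Hbb-bh1*. *Hbb-b2*, not among the adult globins averaged, was at 5.08 on null 4, near its wildtype mean of 5.11.

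Genes of haem synthesis, the membrane and transcription ranked the null arrays like the globins, but for *Klf1*. *Alas2*, which catalyses the committed step of haem synthesis in red cells, was at 4.83, 4.59, 5.40 and 4.54 in wildtype, where 1 array was above background, and at 6.51, 6.93, 7.62 and 4.53 in null, where 3 were. It was higher in null by 1.56 ± 0.56 (2.94-fold, adjusted p = 0.0476), a fold that rests on wildtype levels at the detection limit, and without null 4 by 2.18 ± 0.28 (4.52-fold, adjusted p = 5.1e-04). On signals floored at 1 the difference was 2.90 with no background correction (adjusted p = 0.207) and 2.85 with median centring (adjusted p = 0.203), where the call was lost, and 2.94 with median absolute deviation scaling (adjusted p = 0.0538), where it was lost too. The call with 8 arrays was also lost when any 1 of wildtype 1, 2 or 4 or of null 1, 2 or 3 was left out (adjusted p 0.092 to 0.117). *Slc4a1*, the band 3 anion exchanger, read 5.88, 5.02, 6.73 and 4.86 in wildtype and 8.20, 8.92, 9.67 and 4.64 in null. Of the members with null 4 left out it had the second largest difference, 3.31 ± 0.48 (9.90-fold, adjusted p = 8.7e-04), and with it the difference was 2.23 ± 0.96 (adjusted p = 0.0859). *Klf1*, the transcription factor that drives adult beta-globin expression, was the exception in size. Its levels were 4.92, 5.49, 5.90 and 5.19 in wildtype and 6.01, 5.97, 6.50 and 5.53 in null, a difference of 0.63 ± 0.24 (adjusted p = 0.0589) that moved only to 0.79 without null 4 (adjusted p = 0.0188). Null 4 minus the lowest of the other null arrays was -0.44 for *Klf1*, -1.97 for *Alas2*, -3.56 for *Slc4a1* and -3.97 for *Hbb-bh1*, with the other globins in between.

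The remaining erythroid members gave no level. *Epb42* (protein 4.2 of the red cell membrane), *Gata1* (the erythroid and megakaryocyte transcription factor) and *Car2* (carbonic anhydrase) were above background on no array at the probe that could be read. No probe was annotated as *Ahsp*, the chaperone of free alpha globin. In a longer erythroid list, 23 of 43 genes were tested, of which 6 were higher and 3 lower (26.1% and 13.04%, beside 27% and 17.7% of all genes). The largest statistics belonged to *Tfrc*, the transferrin receptor of all dividing cells, which was lower by 0.95 (10.45 ± 0.10 to 9.50 ± 0.24), *Slc25a38*, a mitochondrial glycine carrier (higher by 0.70), *Nfe2l1*, a widely expressed stress factor (0.53), and *Nfe2*, a blood lineage factor (0.72, from 5.03 to 5.75). Their groups did not overlap, as for 40.2% of all genes, and null 4 did not fall to the wildtype range for any of them. The mean of this list moved little between arrays, from -0.03 to 0.04 in wildtype and from -0.04 to 0.39 in null.

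Megakaryocyte markers leaned the other way. Of 7 tested genes 6 had a lower mean in null, with a median difference of -0.66, and 1 was called lower (*Ppbp*), beside 17.7% of all genes, and 1 higher (*Itga2b*), beside 27%. Without null 4 the same count of 1 lower and 1 higher was found, beside 21% of all genes lower and 31.6% higher in that fit, and the median was -0.45.

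The platelet chemokines are given first. *Pf4* (platelet factor 4) was at 8.88, 10.25, 8.72 and 9.11 in wildtype and at 8.10, 8.74, 9.01 and 7.24 in null. Wildtype 2 was the highest array and null 4 the lowest, and null 2 and null 3 lay above wildtype 3. The difference was -0.97 ± 0.43 (adjusted p = 0.0919) and -0.62 without null 4 (adjusted p = 0.176). *Ppbp*, the precursor of platelet basic protein, read 6.28, 6.87, 4.57 and 7.12 in wildtype, where 3 arrays were above background, and 4.53, 5.16, 4.62 and 4.43 in null, where 1 was. It was lower by 1.53 ± 0.48 on the log2 scale (2.88-fold, adjusted p = 0.030), and a second probe had the same pattern, above background on wildtype 1, 2 and 4 and on no null array. Wildtype 3, at 4.57, was the wildtype array that fell among the null ones, and without it the difference was -2.07 (adjusted p = 5.2e-04). With most null arrays at the detection limit, the size of the difference depends on how dim signals are treated, and on signals floored at 1 it was -3.45 with no background correction (adjusted p = 0.121) and -3.36 with median centring (adjusted p = 0.118), where the call was lost. The *Ppbp* call was also lost when wildtype 1, 2 or 4 or null 1 or 3 was left out (adjusted p 0.064 to 0.083).

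**Figure D2:**
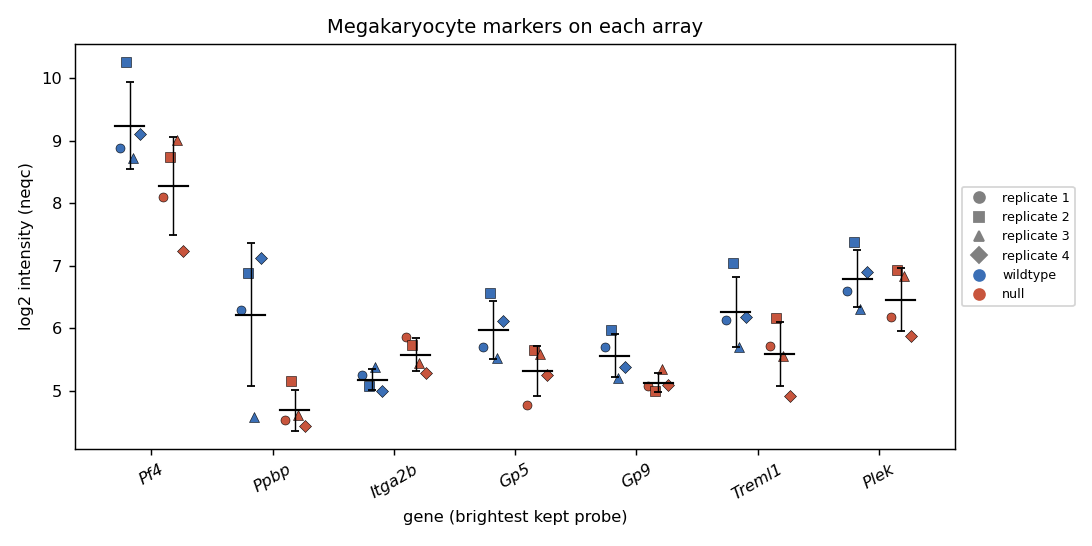
Log2 intensity (vertical axis) of the 7 tested megakaryocyte genes (horizontal axis) on each array, wildtype in blue and null in red, with marker shapes for replicates 1 to 4 and bars for the mean ± SD. Wildtype 2 (square) is the highest wildtype array for 5 of the 7 genes, and *Itga2b* is the gene whose null mean lies above the wildtype mean.

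Of 5 further genes of the platelet 4 were not called and *Itga2b* was called higher. *Gp5* and *Gp9* encode subunits of the von Willebrand factor receptor. *Gp5* was at 5.70, 6.56, 5.52 and 6.11 in wildtype and 4.77, 5.65, 5.58 and 5.24 in null (difference -0.66 ± 0.26, adjusted p = 0.0607), and *Gp9* differed by -0.43 ± 0.16 (adjusted p = 0.0582). *Treml1*, a receptor stored in platelet granules, differed by -0.67 (adjusted p = 0.108), and *Plek* (pleckstrin), a kinase substrate of platelets and leukocytes, by -0.34 (adjusted p = 0.350). None of these 4 was called. *Itga2b*, the integrin alpha chain of the fibrinogen receptor, is found on early blood progenitors as well as on megakaryocytes. Its levels lay near the detection limit, at 5.24, 5.08, 5.38 and 4.996 in wildtype and 5.85, 5.72, 5.44 and 5.28 in null, a difference of 0.40 ± 0.14 (1.32-fold, adjusted p = 0.0462). On signals floored at 1 and median centred it was 0.65 (adjusted p = 0.0543). Its call was also lost when wildtype 1, 2 or 4 or null 1, 2 or 3 was left out (adjusted p 0.056 to 0.124), and a second *Itga2b* probe was above background on no array.

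*Gp1bb* (a further subunit of that receptor) and *Gp6* (the collagen receptor) were above background on no array, and *Clec1b* (the podoplanin receptor) on 1 wildtype and 1 null array. In a longer megakaryocyte and platelet list 12 of 29 genes were tested, none was called higher and 5 were lower (0 and 41.7%, beside 27% and 17.7% of all genes). *Cd9*, a tetraspanin of many cell types, was lower by 1.36 (7.62 ± 0.10 to 6.26 ± 0.09), *F2rl3*, a thrombin receptor, by 0.83, *Mpig6b*, a platelet inhibitory receptor, by 0.51 and *P2ry1*, an ADP receptor, by 0.49. For these 4 genes, named for having the largest statistics of their list, all wildtype arrays lay above all null arrays. The same held for 1708 of 10766 genes tested. Of 18 progenitor, granulocyte and mast cell genes 7 were tested, 1 was higher and 1 lower (14.3% each, beside 27% and 17.7% of all genes). *Kit*, the receptor of mast cells and progenitors that some mesenchymal and neural cells also use, was lower by 1.07. *Gata2*, a progenitor factor, was higher by 1.16. *Runx1* (-0.45, adjusted p = 0.0512) and *Mpo* (1.61, adjusted p = 0.0617) were not called, and *Mpo*, the peroxidase of neutrophil precursors, read 6.12, 6.91, 7.78 and 4.44 in null. Of 15 lymphoid genes 2 were tested and neither was called (*Vpreb1* 0.11 and *Cd79b* 0.002).

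None of the 12 tested macrophage markers was called in either direction, beside 44.8% of all genes. Of these 12 tested genes 8 had a higher mean in null and 4 a lower one, with differences from -0.47 to 0.99 and a median of 0.22. Without null 4 the median was 0.55 and 4 genes were called higher (*Cx3cr1*, *C1qb*, *Tyrobp* and *Fcrls*), which is 33.3% beside 31.6% of all genes in that fit.

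*Fcrls* and *C1qb* had the largest differences of the 12 with all arrays, neither of them called. *Fcrls*, a scavenger-like receptor of mouse tissue macrophages, was at 6.10, 7.69, 5.86 and 7.01 in wildtype and at 7.63, 8.13, 8.77 and 6.09 in null. Null 4 lay with wildtype 1 and 3, and wildtype 2 lay above null 1. The difference was 0.99 ± 0.58 (adjusted p = 0.185) and 1.51 without null 4 (adjusted p = 0.0184), and a second probe gave 0.53 with all arrays. *C1qb*, a chain of complement C1q made by macrophages, read 5.14, 5.74, 4.82 and 5.28 in wildtype and 6.13, 6.67, 7.22 and 4.66 in null. It was among the macrophage genes whose groups did not overlap once null 4 was set aside, the other being *Tyrobp*. The difference was 0.93 ± 0.47 (adjusted p = 0.136) and 1.43 without null 4 (2.70-fold, adjusted p = 0.0029). *Tyrobp*, a signalling adaptor of myeloid receptors, was at 4.88, 4.996, 4.79 and 5.16 in wildtype, where 1 array was above background, and at 5.18, 6.01, 6.23 and 4.69 in null, where 3 were. Its difference was 0.57 ± 0.30 (adjusted p = 0.149).

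Several genes often used to identify macrophages were not called in either fit, apart from *Cx3cr1* without null 4. *Csf1r*, the receptor of the growth factor macrophages depend on, was at 5.74, 6.77, 5.76 and 6.46 in wildtype and 6.39, 6.77, 7.42 and 5.58 in null, a difference of 0.36 ± 0.38 (adjusted p = 0.461). *Adgre1*, an adhesion receptor of mouse macrophages, differed by 0.23 (0.07 at a second probe) and *Cx3cr1*, the fractalkine receptor, by 0.65 ± 0.33 (adjusted p = 0.140). For *Csf1r* and *Adgre1* wildtype 2 lay above null 1, null 2 and null 4 and below null 3. *Mrc1*, the mannose receptor, leaned lower in null (-0.47 ± 0.23, adjusted p = 0.125), with 6.35, 7.54, 6.54 and 7.03 in wildtype against 6.24 to 6.60 in null. The lysozyme genes *Lyz2* and *Lyz1* differed by -0.34 and -0.38 (adjusted p = 0.247 and 0.193), and their probes may read both copies. *C1qc* (0.20), *Laptm5*, a lysosomal protein of blood cells (0.19), and *Fcer1g*, the Fc receptor gamma chain (-0.11), were not called. *C1qa* was above background on 1 null array only, and *Ptprc* (CD45), the surface marker of nearly all nucleated blood cells, on no array at the probe that could be read. No probe was annotated as *Cd68*.

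**Figure D3:**
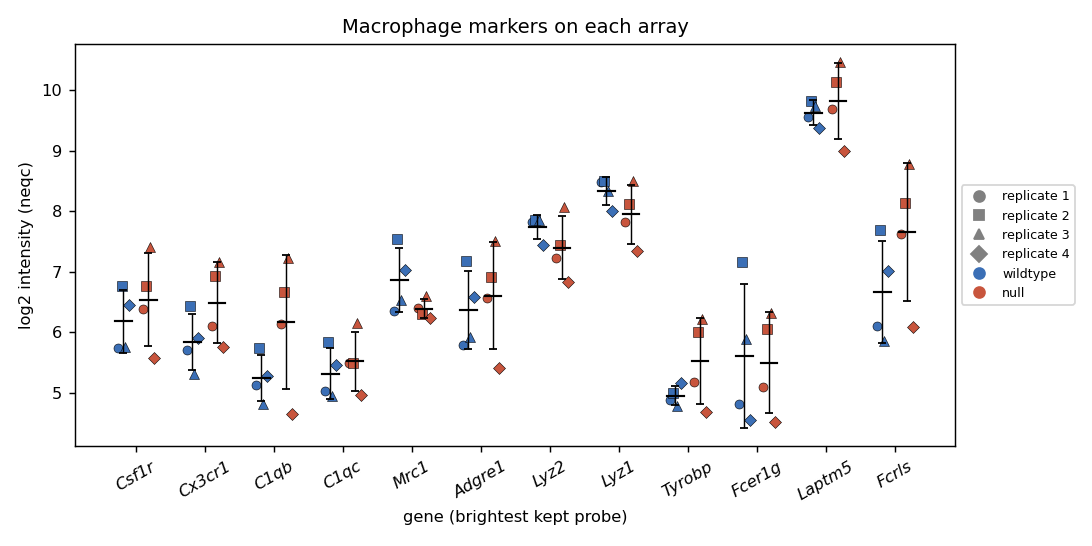
Log2 intensity (vertical axis) of the 12 tested macrophage genes (horizontal axis) on each array, wildtype in blue and null in red, with marker shapes for replicates 1 to 4 and bars for the mean ± SD. Null 4 (diamond) is the lowest and null 3 (triangle) the highest null array for all 12 genes, while wildtype and null overlap for every gene.

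In a longer macrophage and myeloid list 16 of 50 genes were tested, 5 were higher and 1 lower (31.2% and 6.25%, beside 27% and 17.7% of all genes). *Maf*, a transcription factor of macrophages and several other tissues, was above background on no wildtype and all null arrays, at least 1.67-fold higher. *Tlr2*, a receptor for bacterial lipoproteins, was higher by 2.44 (5.70 ± 0.22 to 8.14 ± 0.38), *Coro1a*, an actin regulator of blood cells, by 1.33, and *Lgmn*, a lysosomal protease, was lower by 0.64. *Maf* and *Tlr2* were as high on null 4 (5.86 and 8.44) as on the other null arrays, whereas *Coro1a* on null 4 (6.87) was level with wildtype 2.

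**Figure D4:**
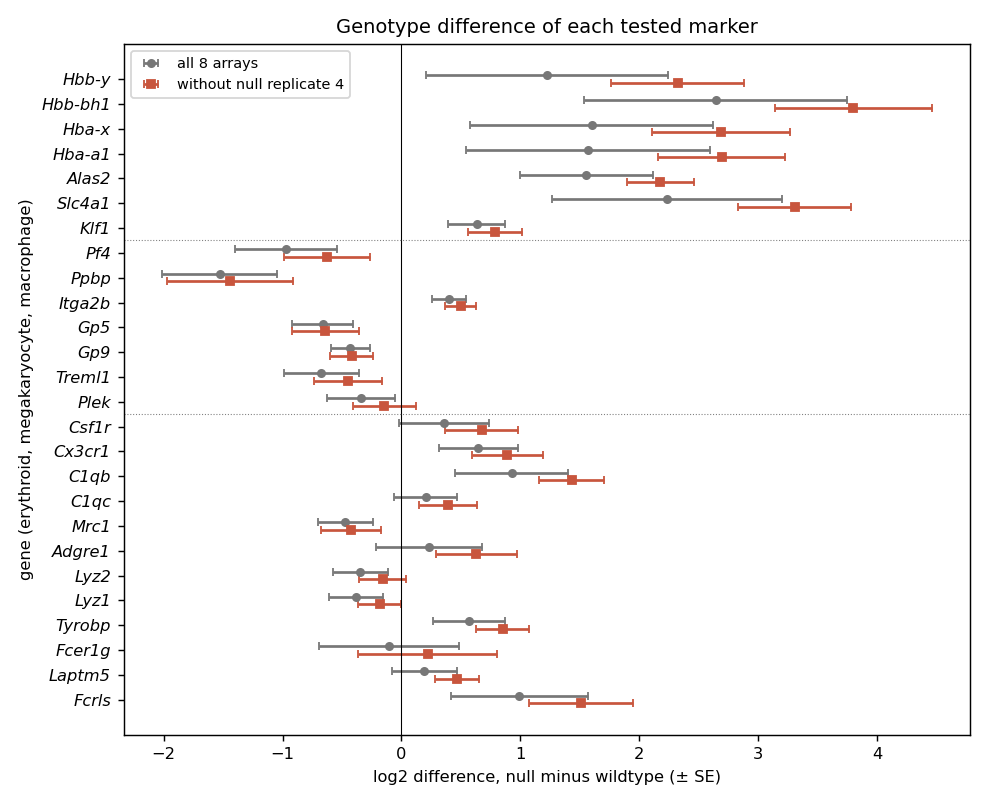
Difference in log2 intensity, null minus wildtype (horizontal axis), with its SE for each of the 26 tested markers (vertical axis, grouped by lineage), with all 8 arrays in grey and without null 4 in red. The 6 erythroid genes other than *Klf1* lie farthest to the right and move farther right without null 4, while *Ppbp* lies farthest to the left in both series.

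A larger spread in null than in wildtype was common among erythroid and macrophage markers, and some other lists shared it. The SD over the 4 arrays was larger in null than in wildtype for 6 of 7 erythroid and 10 of 12 macrophage genes, against 3 of 7 megakaryocyte genes and 64.8% of all genes. A larger SD in null was also found for 11 of 14 endothelial genes and 19 of 24 splicing regulators. The median SD of the erythroid genes was 1.06 in wildtype and 2.25 in null. For the macrophage genes it was 0.44 and 0.69, beside 0.14 and 0.18 over all genes. Null 4 was the lowest null array for all 7 erythroid, all 12 macrophage and 5 of 7 megakaryocyte genes, where 36.7% of all genes had it lowest. Null 3 was the highest null array for all 7 erythroid, all 12 macrophage and 2 of 7 megakaryocyte genes, against 31.1%. The full order null 4, 1, 2, 3 from low to high was found for 6 of 7 erythroid, 10 of 12 macrophage and 1 of 7 megakaryocyte genes, against 15% of all genes.

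Among the wildtype arrays the lineages did not rank alike. Wildtype 3 was the highest wildtype array for 7 of 7 erythroid genes and for no macrophage gene, while wildtype 2 was the highest for 11 of 12 macrophage, 5 of 7 megakaryocyte and no erythroid genes. Over all genes wildtype 3 was highest for 40.5% and wildtype 2 for 22.9%. Wildtype 4 was the lowest wildtype array for 6 of 7 erythroid, 1 of 7 megakaryocyte and 4 of 12 macrophage genes, against 28.8% of all genes. Replicate 4 was thus low for most erythroid genes in both genotypes, not in null alone. As means relative to wildtype, the erythroid genes stood at 0.30, -0.41, 1.02 and -0.92 on wildtype 1 to 4 and at 1.93, 2.55, 3.13 and -1.07 on null 1 to 4. The macrophage genes stood at -0.28, 0.57, -0.25 and -0.04, and at 0.08, 0.52, 0.97 and -0.64. The megakaryocyte genes stood at -0.10, 0.56, -0.55 and 0.08, and at -0.71, -0.26, -0.40 and -1.02, so that all null arrays lay below the wildtype mean. Without null 4, groups did not overlap with null above for all 7 erythroid, 1 megakaryocyte and 2 macrophage genes, beside 32.9% of all genes, and with wildtype above for no member, beside 22.3%.

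**Figure D5:**
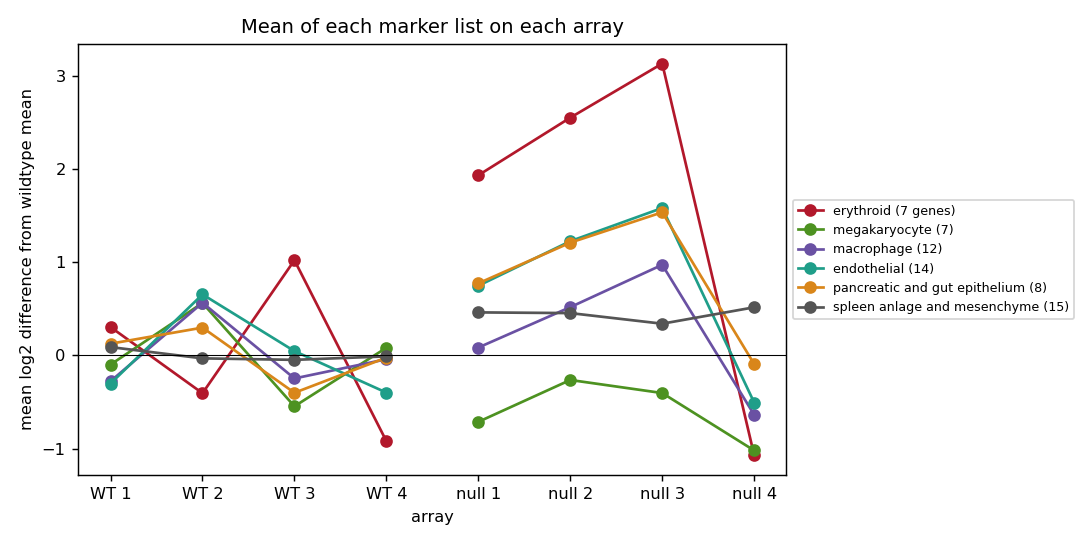
Mean log2 difference from the wildtype mean (vertical axis) over the tested genes of each list on each array (horizontal axis), with lines that only join the points of 1 list, since replicates have no order. Erythroid, macrophage, endothelial and epithelial lists are low on null 4 and high on null 3, while the spleen anlage and mesenchyme list lies between 0.34 and 0.52 on all 4 null arrays.

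Markers of some other non-mesenchymal cells moved with the erythroid and macrophage genes on the null arrays, most of all the endothelial and epithelial lists. The mean of 14 endothelial genes (of 20 listed) ranged from -0.40 to 0.66 in wildtype and was 0.75, 1.23, 1.58 and -0.51 on null 1 to 4, in the order null 4, 1, 2, 3 for 12 of the 14. With all arrays 1 endothelial gene was called higher (*Emcn*, 1.55) and 1 lower (*Tek*, -1.41), beside 27% and 17.7% of all genes, and without null 4 12 of 14 were higher (85.7%, beside 31.6% of all genes). *Egfl7* (0.60) and *Ramp2* (0.44) were not called with all arrays. The mean of 8 pancreatic and gut epithelium genes (of 19) was 0.77, 1.21, 1.54 and -0.09 on null 1 to 4, and 5 of them (62.5%) were called higher, beside the same 27% of all genes as for the 2 lists that follow, among them *Krt8* (1.64), *Krt18* (1.63), *Cdh1* (1.32) and *Spink1* (0.81). For 6 hepatocyte genes (of 15) the mean was 0.46, 0.75, 1.01 and -0.28, with 2 higher (*Apoa1* 0.84, *Hnf4a* 0.73) and 1 lower (*Trf*, -0.65), and *Ttr* (1.14) was not called. The 7 mesothelial genes (of 10) had means of 0.36, 0.43, 0.62 and 0.20, with 3 higher (*Krt7* 1.10, *Podxl* 0.79, *Lrrn4* 0.69) and *Bnc1* (0.19) not called. The order null 4, 1, 2, 3 was found for 6 of 8 epithelial, 2 of 6 hepatocyte and 3 of 7 mesothelial genes, against 15% of all genes. The mean of the 2 lymphoid genes was highest on null 4 (0.25). The part of other cells in the erythroid and macrophage values was not tested.

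The spleen anlage and mesenchyme list was not low on null 4. Its mean was 0.46, 0.45, 0.34 and 0.52 on null 1 to 4, lowest on null 3 and highest on null 4. Of 15 spleen anlage and mesenchyme genes (of 18) null 4 was the lowest null array for 4, and 6 were called higher (*Nkx3-2*, *Dcn* 1.93 and *Lum* 2.56 among them) and 3 lower (40% and 20%, beside 27% and 17.7% of all genes), with *Nkx2-5* at 8.97 ± 0.29 in wildtype and 6.66 ± 0.36 in null. Of 24 splicing regulators (of 26) 16 were called lower (66.7%, beside 17.7% of all genes) and none higher, among them *Clk1* (-2.21), *Ddx5* (-1.27), *Pnisr* (-1.02) and *Srsf6* (-0.36). Their mean was -0.54, -0.84, -0.89 and -0.47 on null 1 to 4, lowest on null 3 and highest on null 4, so it ran opposite to the erythroid mean across the null arrays. With this mean as a covariate none of the 26 members was called, beside 6.59% of all genes in that fit. The differences of the 7 erythroid genes turned negative. The mean itself lay between -0.25 and 0.11 on the wildtype arrays, above all null arrays, so this fit cannot separate it from genotype.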

How the data were processed

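Total RNA from 8 samples was labelled and hybridized, and GenomeStudio, named in the submitters' processing notes, gave the background-subtracted signals. The deposited signal table holds a probe intensity and a detection p-value per array as the authors exported them, the p-value columns running the opposite way (1 minus p). A second table, deposited on the log2 scale, is the same signals floored at 1, minus each array's median and a probe baseline of unstated source (array medians -0.20 to 0.24). It carries the probe names, and 34536 of 45281 probes were joined to it by their profiles (tolerance 0.002), among them all 19841 detected on at least 4 arrays. Of these 16663 have 1 gene symbol, 11 several and 3167 none. Of the 53 member probes 42 were joined. The 11 others could not be read, and 8 of them were at the floor on every array.

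Values were corrected with neqc (limma 3.58.1 in R 4.3.3, offset 16), filtered at detection p under 0.05 on at least 4 of 8 arrays, and reduced to the brightest probe of each gene (10766 genes). Genotypes were compared with lmFit and eBayes, two-sided, with Benjamini-Hochberg adjustment, and the code was tested on simulated data. The study's scaling by median absolute deviation was an alternative, beside those on background, table, filter, probe choice, replicate block, array weights, left-out arrays and a splicing covariate. All 37 members are named, and of each further list up to 4 genes with the largest moderated statistic, plus *Nkx3-2*. The members and lists were chosen with earlier results of these data known. The number of arrays limits the precision.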

Additional observations from a re-analysis of the deposited data

Results flagged for a closer look

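Of 58 groups of 4 arrays examined (the 26 tested genes and the means of the 3 lineages, in each genotype) 1 held a lone array by Dixon's ratio, where chance flags about 1 in 20 groups. It was *Lyz2*, one of the macrophage lysozyme genes, in wildtype, with a ratio of 0.921. Its log2 intensities were 7.82, 7.85, 7.85 and 7.45 on wildtype 1 to 4, so wildtype 4 lay below the other wildtype arrays. No group of null arrays was flagged, so null 4 was not a lone array by this ratio.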

How the results depend on the processing

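The count of erythroid genes called (1 with all arrays) fell to 0 with no background correction, median centring, the deposited value table, no filter, detection p under 0.01 on all arrays, the 20th percentile filter and the splicing covariate, and rose to 3 with median absolute deviation scaling and to 5 with array weights. Leaving out single arrays gave 0 to 7, with 3 without wildtype 3 and 7 without null 4. The megakaryocyte count (2) was 1 with offset 50, no background correction, median centring, the value table, no filter and the 20th percentile filter, 0 with the strict detection filter and the splicing covariate, 5 with array weights, and 0 to 4 with single arrays left out, 4 without wildtype 3. The macrophage count (0) was 0 to 4 with single arrays left out, 1 without null 3 and 4 without null 4. Deviations of same-numbered wildtype and null arrays correlated at 0.122, 0.0485, 0.319 and 0.379, not all above 0.1, so the numbers were not read as pairs. Replicate 3 was still highest in both genotypes for 7 of 7 erythroid genes. Replicate 4 was lowest for 6 of 7 in wildtype and 7 of 7 in null. What same-numbered arrays share is not given. With a replicate block 5 erythroid and 4 megakaryocyte genes and 5043 genes in all were called. With the splicing covariate 709 genes were called in place of 4819, the erythroid median was -3.185 and the macrophage median -0.6597 (-0.3448 with the strict filter). This covariate did not overlap between the genotypes, so its fit cannot separate it from genotype. Its standard errors were larger (1.55 against 1.02 for *Hbb-y*), no member passed, and these genes changed sign: *Hbb-y* -3.77, *Hbb-bh1* -3.185, *Hba-x* -3.567, *Hba-a1* -3.276, *Alas2* -1.318, *Slc4a1* -2.693, *Klf1* -0.558, *Csf1r* -0.641, *Cx3cr1* -0.191, *C1qb* -0.660, *C1qc* -0.230, *Adgre1* -0.934, *Tyrobp* -0.660, *Laptm5* -1.163 and *Fcrls* -0.281. With single arrays left out *C1qc* ranged from -0.004461 to 0.3926, *Adgre1* from -0.0705 to 0.6275 and *Laptm5* from -0.0206 to 0.4672, each lowest without null 3 and highest without null 4. *Fcer1g* turned to 0.0245 with no background correction, 0.0376 with median absolute deviation scaling, 0.0407 with centring and with the value table, and 0.410, 0.026 and 0.220 without wildtype 2, null 1 and null 4 (lowest -0.4565, without wildtype 4). Median absolute deviation scaling moved the median of all genes from 0.094 to 0.563, with 3481 genes higher and 468 lower in place of 2909 and 1910. The cause of these changes was not tested.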
